A study of Arabidopsis thaliana with 2 samples.

Results

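The genes described here are the nuclear, non-ribosomal genes whose probe sets were among the brightest in Arabidopsis thaliana hypocotyls. They were chosen by signal. A gene was taken when its probe set named 1 gene, was no control, and had a mean signal over the 2 arrays of 1000 or more in the intensity units deposited, and organelle-encoded genes and ribosomal protein genes were left out. Of 13513 single-gene probe sets, 176 (1.3%) reached that signal, of which 16 were organelle-encoded and 50 belonged to ribosomal protein genes or families, which left 110. The signal chose them, so their brightness is a description and not a finding. A further 206 plant probe sets at that signal had no gene named here and 25 named several genes, so 407 plant probe sets reached 1000 in all. The working name of the set calls these transcripts the most abundant, which signals alone do not show. Equal amounts of 2 RNAs can give unequal signals on different probe sets, so the genes are called bright, and no gene's level is ranked against another's.

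The hypocotyl is the stem between root and seed leaves, which in older plants thickens and lays down woody xylem. Both samples were hypocotyls of the Col ecotype, with no mutation or transgene named, at growth stage 6.0, from plants kept at 22 °C on compost and vermiculite under 8 h of light and 16 h of darkness and given Intercept, an insecticide, with the first watering. Each sample, called sample 1 and sample 2, was hybridised to its own Affymetrix ATH1 array. The labels give both the same description, so there was 1 group, no contrast between conditions and no test, and separate plants are not stated as their source, so their spread may reflect technical error alone. Fewer cells of a type and less RNA per cell cannot be told apart in whole tissue.

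Cells of most plant tissues spend much of their messenger RNA on a small set of housekeeping tasks. Glycolysis splits sugars for energy and carbon skeletons, translation factors bring ribosomes and transfer RNAs to the message, and ubiquitin, a small protein attached by conjugating enzymes and ligases, marks proteins for destruction. Growing and thickening stems also make enzymes that loosen, methylate, acetylate or lignify the cell wall, and secreted peroxidases and vacuolar proteases act in development as well as in defence.

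The trimmed means of both arrays came to 100.0, as scaling to a common target would give, so their overall level tells nothing about the samples. Median intensities were 42.0 in sample 1 and 42.7 in sample 2. Per the labels, the average background was 79.94 in sample 1 and 95.57 in sample 2, and the average noise was 4.81 and 6.28. Few defining markers of tissue had a single-gene probe set named here, and a gene is called measured only if it had one. Others may lie on probe sets that are unnamed here or name several genes. The 1 measured of 11 secondary xylem genes, IRX10, which helps build xylan, had 159.6 in sample 1 and 185.8 in sample 2. Summed over the 2 measured of 5 green tissue genes, signals were 895.8 and 946.2. The 2 root hair genes summed to 30.1 and 28.6, and none of 3 seed genes was measured. The anther gene A9 had 2.2 and 1.2, under the brightest Bacillus control probe sets, which reached 13.1 in sample 1 and 12.6 in sample 2. No marker of the hypocotyl itself was on these lists, so the labelled organ was not checked beyond this.

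Of the 110 bright genes, 29 had a name that describes a function in the tables used or a place on a hand-written list of pathway loci, and 81 had neither and are given by locus, or by symbol alone, with no role. The function classes below cover the 29 alone, so they do not give the functions of all 110, and genes of like function may lie among the 81. A symbol of their own was carried by 23.6% of the 110 and by 11.5% of all single-gene probe sets. The mean signals of the 110 ran from 1000.6 to 3378, with a median of 1295, and 37 of them lay under 1200. In 99 genes both samples were at 1000 or more, in 8 sample 1 alone and in 3 sample 2 alone. Just inside the threshold stood AT5G45350, AT4G27130 and AT1G75800, with means of 1000.6, 1002 and 1004. Just outside were FER, the receptor kinase FERONIA, at 999.4, AT1G65720 at 998.1 and AT3G02360 at 997.8.

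Central carbon metabolism was represented by a pair of glycolytic enzymes and an isocitrate dehydrogenase. GAPC2, the cytosolic dehydrogenase that oxidises glyceraldehyde 3-phosphate, had 2679 in sample 1 and 2250 in sample 2, a mean of 2465 ± 303 (SD, n = 2). TPI, the cytosolic triosephosphate isomerase that feeds that step, had 1060 in sample 1 and 1141 in sample 2, a mean of 1100 ± 57.2 (SD, n = 2). TPI was thus among the few bright genes with the higher signal in sample 2, while GAPC2 had the higher signal in sample 1. cICDH, the cytosolic isocitrate dehydrogenase that makes NADPH, had 1701 in sample 1 and 1582 in sample 2.

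Of 30 cytosolic glycolysis loci listed by hand, 11 had a single-gene probe set, and 2 of the 11 (18.2%) reached 1000, where 1.3% of all single-gene probe sets did. Since the threshold chose the bright genes, nothing is read from that share. The other 9 had means between 16.4 and 262. Among them, ENOC, an enolase, had 103.1 in sample 1 and 122.5 in sample 2, and the locus AT1G20950 had 272.6 and 252.2. ALDH11A3, a dehydrogenase that bypasses an ATP-yielding step, had 16.2 and 16.5, little above the brightest Bacillus controls. Over the 11 loci the median log2 ratio of sample 1 over sample 2 was -0.03. Of the 11, 5 were higher in sample 1, beside 49.7% of single-gene probe sets above those controls. None of 13 listed loci for sucrose entry and fermentation, and none of 8 for the methionine cycle, had a single-gene probe set here.

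A pair of bright genes act on amines and aldehydes. SAMDC, which decarboxylates S-adenosylmethionine for polyamine synthesis, had 2001 in sample 1 and 1843 in sample 2, a mean of 1922 ± 112 (SD, n = 2). ALDH10A8, an aldehyde dehydrogenase that oxidises aminoaldehydes, had 1551 in sample 1 and 1391 in sample 2. Its close relative ALDH10A9 had 351.9 and 377.4. The 7 other measured ALDH genes had means between 16.4 and 444.

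Among the described genes, protein turnover was represented by ubiquitin conjugation and by vacuolar proteases. UBC28, a ubiquitin-conjugating enzyme, had 2861 in sample 1 and 2341 in sample 2, a mean of 2601 ± 367 (SD, n = 2). It was the 1 measured locus of 24 listed for ubiquitin and its conjugation, so the ubiquitin genes themselves are not described here.

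GAMMA-VPE, a vacuolar cysteine protease that matures other vacuolar proteins and acts in cell death, had 2454 in sample 1 and 2143 in sample 2. APA1, an aspartic protease, had 1644 and 1471. Of the 3 other processing enzymes, BETA-VPE had 666.5 in sample 1 and 587 in sample 2, ALPHA-VPE had 20.9 and 15.9, and DELTA-VPE, at 9.7 and 10.1, was under the brightest Bacillus controls.

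**Figure D1:**
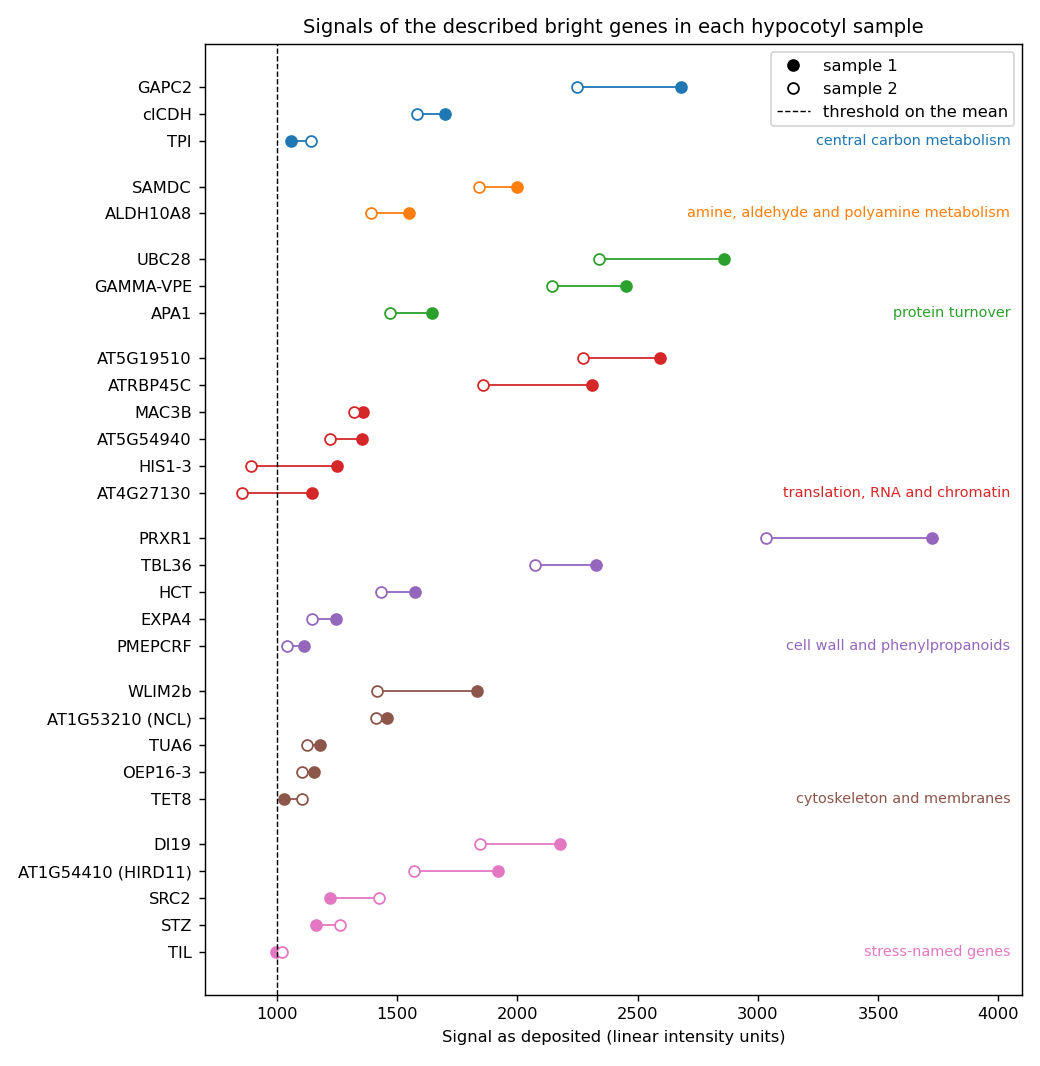
Signals as deposited (x axis, linear intensity units) of the 29 bright genes with a described function, grouped by class, with a filled circle for sample 1 and an open circle for sample 2. The dashed line is the threshold of 1000 on the mean. For 24 genes the filled circle lies to the right, and for 5 (TPI, TET8, SRC2, STZ and TIL) the open one does; the direction of 40 of all 110 genes was not kept under other scalings.

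Translation, RNA and chromatin accounted for 6 of the described genes. AT5G19510, from the list of translation factor loci, had 2592 in sample 1 and 2275 in sample 2, a mean of 2434 ± 225 (SD, n = 2). AT5G54940, from the same list, had 1353 in sample 1 and 1221 in sample 2. AT4G27130, also from it, had 1148 in sample 1 and 855 in sample 2, so it passed the threshold through sample 1. Of 30 loci listed by hand under translation factors, whose roles were not checked, 8 were measured. Of the 8, 3 reached 1000 (37.5%, where 1.3% of all single-gene probe sets did, a share the threshold fixes). The other 5 had means between 84.8 and 722. EIF4A-2, an RNA helicase that opens messages for the ribosome, was the highest of these, with 751.6 in sample 1 and 692.8 in sample 2. The 8 had a median log2 ratio of 0.12, and 7 were higher in sample 1 on the values as deposited. That was so for 49.7% of single-gene probe sets above the brightest Bacillus controls, and the share rose with signal. It was 66.5% for genes with means from 500 to 1000 that met the other rules, and 89.2% for other plant probe sets at 1000 or more. With 3 of the 8 at 1000 or more, nothing is read from that count.

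ATRBP45C, an RNA-binding protein gene, had 2312 in sample 1 and 1859 in sample 2. Its relative RBP45B had 745.7 and 722.1, below the threshold in both. MAC3B, a part of a complex tied to splicing, had 1358 in sample 1 and 1323 in sample 2, a mean of 1341 ± 24.6 (SD, n = 2). HIS1-3, a linker histone variant known to be induced by drought, had 1251 in sample 1 and 892 in sample 2, a mean of 1072 ± 254 (SD, n = 2). HIS1-3 and AT4G27130 were the described genes with sample 2 under the threshold.

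The cell wall and phenylpropanoid genes numbered 5 among those described. PRXR1, a secreted-type peroxidase, had 3722 in sample 1 and 3034 in sample 2, a mean of 3378 ± 486 (SD, n = 2). TBL36, of the TRICHOME BIREFRINGENCE-LIKE family whose studied members acetylate wall polysaccharides, had 2327 in sample 1 and 2075 in sample 2. HCT, a transferase on the path to lignin precursors, had 1575 in sample 1 and 1435 in sample 2. All these had the higher signal in sample 1 as deposited, and HCT kept that direction under all 4 scalings. After quantile normalization PRXR1 had the same value in both samples, and TBL36 had a log2 ratio of -0.075. EXPA4, an expansin, which loosens growing walls, had 1247 in sample 1 and 1145 in sample 2. PMEPCRF, a pectin methylesterase, which removes methyl groups from pectin, had 1113 in sample 1 and 1042 in sample 2. Both samples were over 1000 for all 5.

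For TBL36, EXPA4 and PMEPCRF, the measured relatives found by symbol had mean signals under 1000. Relatives of PRXR1 and HCT are not described here. TBL36 was the 1 of 22 measured TBL genes at 1000 or more, and the other 21 had means between 1.3 and 263, with 15 of them above the brightest Bacillus controls on both arrays. The highest of those was TBL37, with 278.4 in sample 1 and 247.4 in sample 2. EXPA4 was likewise the 1 of 10 measured EXPA genes, and the other 9 had means between 1.7 and 115. EXPA15 had 107.6 in sample 1 and 122.8 in sample 2, and 5 of the 9 were above the controls. PME61, a second pectin methylesterase gene, had 395.4 in sample 1 and 330.5 in sample 2. The families were looked up once the bright genes were known, and signals of different probe sets do not order amounts of RNA. Bright relatives may also lie among the 206 unnamed probe sets and the 25 of several genes that reached 1000.

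**Figure D2:**
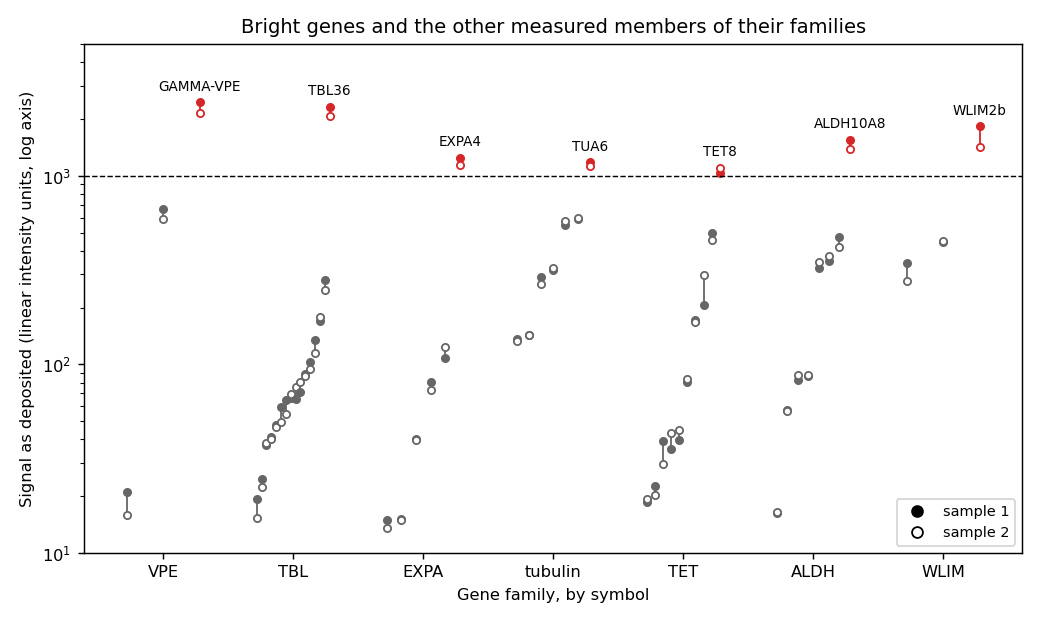
Signals as deposited (y axis, linear units on a log axis) of measured members of 7 gene families that hold a bright gene, limited to probe sets above the brightest Bacillus controls on both arrays; filled circles are sample 1, open circles sample 2. Among the genes found by symbol on single-gene probe sets, 1 in each family, in red, has a mean over the dashed line at 1000. Probe sets unnamed here or naming several genes are not shown.

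Cytoskeleton and membrane genes also numbered 5. WLIM2b, a LIM domain protein that bundles actin filaments, had 1831 in sample 1 and 1418 in sample 2, a mean of 1624 ± 292 (SD, n = 2). Its relatives WLIM1 and WLIM2a had 443.5 and 342.6 in sample 1, and 450.7 and 277.5 in sample 2. TUA6, an alpha tubulin of the microtubules, had 1179 in sample 1 and 1126 in sample 2. The 6 other measured tubulin genes had means between 134.6 and 596, the highest being TUB6 with 591.3 and 599.7. These tubulin values lay close together between the samples.

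AT1G53210, known as NCL and described as a sodium and calcium exchanger, had 1460 in sample 1 and 1411 in sample 2. OEP16-3, of a family of organelle membrane channels, had 1155 and 1106. TET8, a tetraspanin found on vesicles that plant cells release, had 1032 in sample 1 and 1106 in sample 2. Of 14 other measured TET genes, with means between 0.75 and 476, TET9 had 205.3 in sample 1 and 297.9 in sample 2.

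The 5 genes classed as stress-named, by the names in the tables, were split between the samples. RD2 and AILP1, whose symbols have no description there, were not put in this class. As deposited, RD2 and AILP1 had the higher signal in sample 1. DI19, a drought-induced zinc finger protein gene, had 2178 in sample 1 and 1844 in sample 2. AT1G54410, known as HIRD11, a small dehydrin, had 1921 in sample 1 and 1572 in sample 2. Both had the higher signal in sample 1 on the values as deposited, and DI19 had the same value in both samples after quantile normalization.

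SRC2, named after a cold-regulated soybean gene, had 1223 in sample 1 and 1426 in sample 2, a mean of 1324 ± 144 (SD, n = 2). STZ, a zinc finger repressor induced by salt and cold, had 1162 in sample 1 and 1265 in sample 2. TIL, a lipocalin that protects membranes in heat and cold, had 996 in sample 1 and 1020 in sample 2, a mean of 1008 ± 17.2 (SD, n = 2). SRC2, STZ and TIL had the higher signal in sample 2 under all 4 scalings, the deposited one included. Quantile and loess scaling moved these ratios further toward sample 2, so only scaling to the same median could have changed the direction. After that scaling the log2 ratio of TIL was -0.008. TIL entered the set through sample 2.

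Among the 81 genes without a described role, the 8 with the highest means included AT1G78040, with 2835 in sample 1 and 2294 in sample 2. AT1G51200 had 2665 in sample 1 and 2187 in sample 2. AT1G14890 had 2588 in sample 1 and 2112 in sample 2. These 3 had the higher signal in sample 1 under all 4 scalings. AT1G67865 had 2318 in sample 1 and 1987 in sample 2. AT3G53980 had 2369 in sample 1 and 1686 in sample 2. AT4G16190, AT5G43460 and AT3G48140 had means of 1935 ± 290, 1901 ± 126 and 1894 ± 185 (SD, n = 2). All 8 were above 1500 in both samples. The other 73 had means between 1000.6 and 1875, with 14 at 1500 or more, 31 between 1200 and 1500 and 28 under 1200. RD2 and AILP1, which have symbols but no description in the tables, are among the 81, with means of 1285 ± 111 and 1826 ± 143.

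A pair of bright genes lay side by side in the order of protein-coding genes of the TAIR10.1 assembly, AT1G67865 and AT1G67870, the second with 1530 in sample 1 and 1381 in sample 2. AT1G78020, with 1452 in sample 1 and 1234 in sample 2, was 1 gene away from AT1G78040. Of the 110 genes, 1 had a second single-gene probe set. For AT5G24690 the bright one had 1052 in sample 1 and 1061 in sample 2, and the other had 385.9 and 404.8, so its place among the bright genes depends on the probe set.

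The difference between the samples was not itself part of the rule, and most bright genes had the higher signal in sample 1. The rule did bear on the direction of the 8 genes at 1000 or more in sample 1 alone and the 3 in sample 2 alone. Of the 110, 94 were higher in sample 1 and 16 in sample 2 on the values as deposited, where 49.7% of the 8906 single-gene probe sets above the brightest Bacillus controls, and 89.2% of the 297 other plant probe sets at 1000 or more, were higher in sample 1. The split was 60 and 46, with 4 equal, after quantile normalization, and 67 and 43 after loess correction. The median log2 ratio of sample 1 over sample 2 was 0.14 over the 110 genes, a 1.1-fold difference, with an SD of 0.15 among genes and a range from -0.28 to 0.55. It was 0.15 over the 297 other bright plant probe sets. The share and the median were thus near those of probe sets of like signal.

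The bright sets set beside them had like medians. It was 0.14 for the 50 ribosomal protein genes, with a range from -0.09 to 0.32, and 0.16 for the 16 organelle-encoded genes, all higher in sample 1. For probe sets of several genes and for unnamed ones it was 0.14 and 0.15. At lower signals it was smaller, 0.05 for 319 eligible genes with means from 500 to 1000, and near 0 for 2966 with means from 100 to 500. The hybridisation controls added to every sample also had higher signals in sample 1. The 4 cre control probe sets had a median log2 ratio of 0.50, and the 14 for the bacterial bio genes had 0.81. The 16 actin, GAPDH and ubiquitin probe sets that check RNA quality had 0.11. The part of background, noise or hybridisation in the bright genes' ratios was not tested.

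**Figure D3:**
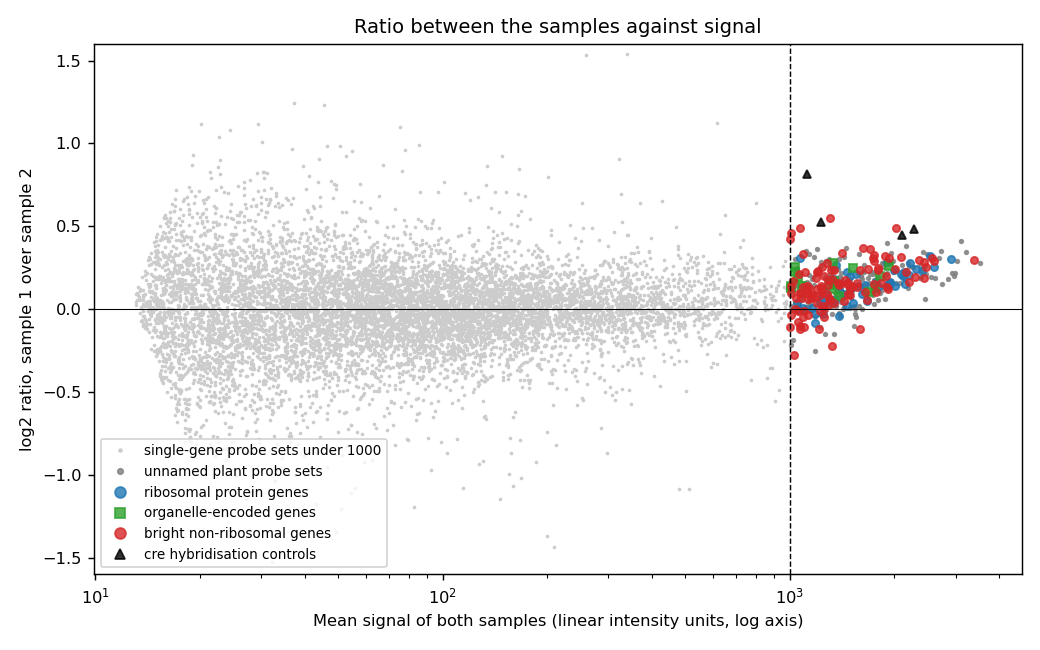
The log2 ratio of sample 1 over sample 2 (y axis) against mean signal (x axis, linear units on a log axis) for single-gene probe sets above the brightest Bacillus controls under 1000 (grey) and for sets at 1000 or more, right of the dashed line. The bright non-ribosomal genes, in red, have a median of 0.14 and lie among the ribosomal, organelle-encoded and unnamed probe sets.

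Few bright genes differed much between the samples. None of the 110 differed by 1.5-fold or more, where 1.63% of the 8906 probe sets did toward sample 1 and 2.18% toward sample 2, and 0.0% of the 297 other bright ones did in either direction. By 25% or more, 10 of the 110 were higher in sample 1, against 7.5% of the 8906 and 5.05% of the 297. None of the 110 was higher in sample 2 by that much, against 9.77% and 0.0%. These counts depended on the scaling: toward sample 1 and toward sample 2 they were 16 and 0 after scaling to the same median, 4 and 2 after quantile normalization, and 5 and 2 after loess correction. In the same order, the shares of the 8906 were 9.01% and 8.28%, 8.72% and 8.47%, and 8.67% and 8.65%. Those of the 297 were 8.75% and 0%, 0% and 0.673%, and 0% and 0.337%. After quantile and loess scaling, the 2 bright genes toward sample 2 were AT4G27450 and SRC2. The median SD between the samples was 7.25% of the mean, and the highest was 26.5%. Across the 110 genes, which are not independent replicates and share both arrays, the log2 signals of sample 1 and sample 2 had a Pearson correlation of 0.941, beside 0.986 over the 8906 probe sets, which span a wider range of signal.

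The 10 genes included HIS1-3, WLIM2b and AT4G27130. AT5G05960 had 1548 in sample 1 and 1059 in sample 2, or 0.55 as a log2 ratio. AT3G53980 and HIS1-3 both had 0.49, AT1G75800 had 0.46 with 1163 and 846, and AT4G27130 had 0.43. WLIM2b and AT5G16110 had 0.37 and 0.36. AT1G56220, AT1G10590 and AT5G38980 had 0.34, 0.33 and 0.33. All 10 were higher in sample 1 under all 4 scalings. They were picked for large ratios as deposited, and scaling to the same median moved them further toward sample 1, so nothing is read from that. The threshold also bears on 4 of the 10, HIS1-3, AT1G75800, AT4G27130 and AT1G10590, which were under 1000 in sample 2 and entered through sample 1. Their direction is thus partly set by the choice. The other 6 were over 1000 in both samples. At the other end, AT4G27450 had 927 in sample 1 and 1122 in sample 2, or -0.28 as a log2 ratio, followed by SRC2 at -0.22. AT1G62500, STZ and AT2G05790 had -0.12 each. AT5G45350 and TPI had -0.11, and TET8 had -0.10. These 8 were higher in sample 2 under all 4 scalings, and AT4G27450 and AT5G45350 entered through sample 2. Quantile and loess scaling moved these 8 ratios further toward sample 2, so only scaling to the same median could have changed their direction.

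Set against the median of the other bright plant probe sets, 5 of the 110 genes had ratios 25% or more away. Toward sample 1 they were AT5G05960 (1.32-fold from that median), AT3G53980 (1.27-fold) and HIS1-3 (1.26-fold), where 0.0% of the 297 others did. Toward sample 2 they were AT4G27450 (1.34-fold) and SRC2 (1.29-fold), where 1.35% of the 297 others did. HIS1-3 was under 1000 in sample 2, and AT4G27450 was under 1000 in sample 1. Both entered through the sample in which they were higher, so their distance from that median is partly set by the choice. At the flat end, AT1G16180 had 1257 in sample 1 and 1256 in sample 2, and AT3G02200 had 1032 and 1031. With 1 array per sample and both samples of 1 group, none of these differences has a replicate check.

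**Figure D4:**
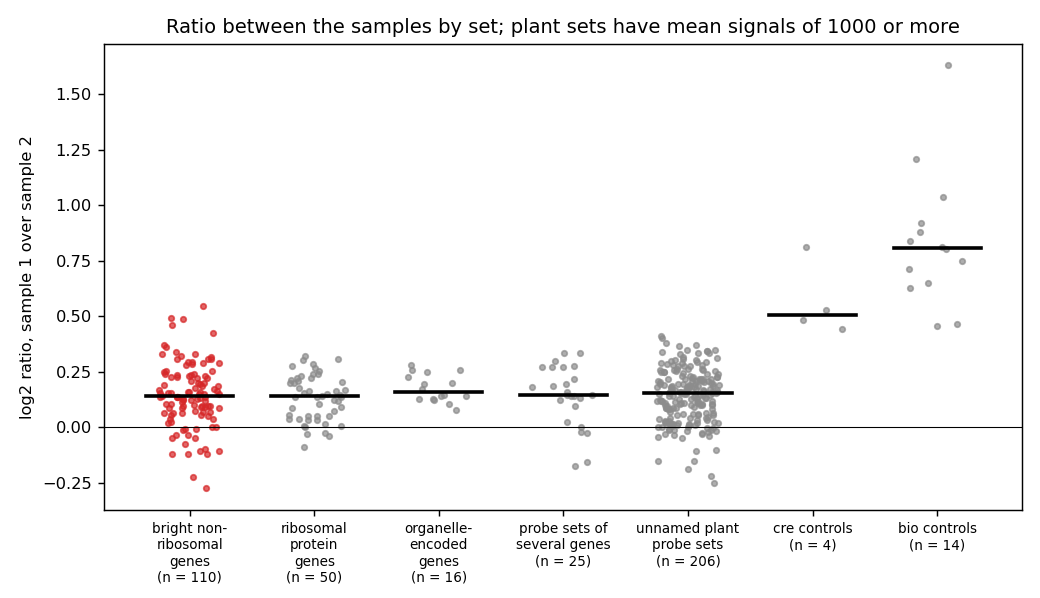
The log2 ratio of sample 1 over sample 2 (y axis) for each probe set, by set (x axis), with a black bar at the median; horizontal scatter within a set has no meaning. The 110 bright non-ribosomal genes (median 0.14) overlap the other plant sets at 1000 or more, and the cre (0.50) and bio (0.81) control probe sets have higher medians.

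The function classes had different median ratios on the values as deposited. The median log2 ratio was 0.25 for the 6 translation, RNA and chromatin genes, 0.13 for the 5 wall genes and 0.06 for the 5 cytoskeleton and membrane genes, and -0.03 for the 5 stress-named genes. For the 81 genes without a described role it was 0.14, as over all 110. After quantile normalization the 4 named classes had 0.05, 0.01, -0.03 and -0.10, so the sign for the cytoskeleton and membrane genes depended on the scaling. Among the translation, RNA and chromatin genes, HIS1-3 and AT4G27130 were under 1000 in sample 2 and entered through sample 1. Among the stress-named genes, TIL, whose ratio is the class median, was under 1000 in sample 1 and entered through sample 2. The medians as deposited of these classes are thus partly set by the choice of genes. The stress-named median also rests on which genes were put in that class. RD2, AILP1 and HIS1-3, the last known to be induced by drought, were not in it. Their log2 ratios as deposited were 0.18, 0.16 and 0.49. With 5 or 6 genes a class the class medians are descriptions, and no class was tested against another.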

How the data were processed

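RNA from 2 hypocotyl samples was labelled with biotin and hybridised to ATH1 arrays, 1 array per sample, per the labels. The files deposited give linear intensities, 1 for each of 22810 probe sets; the program used was not given in the sources used here. With 2% trimmed off each end, the mean was 100.0 on both arrays. The number of arrays limits the precision. The values were used as deposited, with no rescaling and nothing added before log2. The choice of genes passed over the 64 control probe sets.

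Gene names came from the platform annotation, with symbols updated, by identifier, from RefSeq's table for TAIR10.1. Of 22746 plant probe sets, 13513 named 1 gene, 503 several, and 8730 are unnamed here. The gene table matched 13436 of the first kind, and 107 of the 110 bright genes. These tables carry few descriptions. They marked none of the bright genes as ribosomal, so the 50 left out rest on a list of loci written by hand from general knowledge, which includes AT1G25260 and AT5G06360 of ribosomal protein families. A role was given where a symbol or synonym states it or the locus was on a pathway list. The members and lists were chosen with earlier results of these data known.

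Genes were named by a rule. It takes up to 8 genes a class with the highest means, pathway list loci, 5 or more of the largest ratios in each direction, and 3 on each side of the threshold. The 25% difference, the relatives in the gene families, the neighbouring genes, the genes with nearly equal signals and the largest ratios beyond 5 were added after their values were seen. The relatives of 1 bright gene are not reported here. Promoter motifs were planned and not analysed here. The steps were tested on simulated data. Alternatives were other thresholds, means and normalizations (scaling to the same median, quantile, loess with a span of 0.3, 16 added before log2), probe sets with plain names, and leaving out each sample. Calculations used Python 3.11.15, numpy 2.4.6, pandas 2.3.3, statsmodels 0.14.6 and matplotlib 3.10.9.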

Additional observations from a re-analysis of the deposited data

How the results depend on the processing

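The number of bright genes was 110 at a mean of 1000, 164 at 800 and 63 at a threshold 25% above 1000, so the set is defined by the threshold. It was 99 with both arrays at 1000 or more, 107 with geometric means, 108 after quantile normalization and 110 with plain probe set names, and between 106 and 117 from either sample alone. Without the hand-written list of loci, an alternative added after seeing the data, it was 160. At the highest threshold the wall genes numbered 3, the cytoskeleton and membrane genes 2, the stress-named genes 3 and the genes without a described role 44, and at 800 the last numbered 127. The median log2 ratio of 0.14 was 0.17 after scaling to the same median, 0.02 after quantile normalization and 0.03 after loess correction. It was between 0.14 and 0.15 under the other alternatives (the described genes alone, added after seeing the data, included). Each of these medians moved by less than 1 SD of the genes. This SD is the spread among genes and not the error of a median, and quantile and loess scaling took away most of the 0.14. By 25% or more, 10 genes were higher in sample 1 and 0 in sample 2 as deposited. Under alternatives added after seeing the data these were 16 and 0 with the same median, 4 and 2 after quantile normalization, 5 and 2 after loess correction, and 6 and 0 among genes with both arrays at 1000 or more. The shares of other plant probe sets at 1000 or more were 5.05% and 0% as deposited. They were 8.75% and 0% with the same median, 0% and 0.673% after quantile normalization, and 0% and 0.337% after loess correction. Of the 110 signs, 70 were kept under all 4 scalings, 57 toward sample 1 and 13 toward sample 2. Quantile and loess scaling moved the bright genes' ratios toward sample 2. They could thus undo a direction toward sample 1 but not one toward sample 2. Of 220 recomputed gene ratios, 177 moved by less than that SD and 43 by more, and of 10 class medians 7 moved by less and 3 by more than the SD of their class. Motif shares were not run, as no promoter sequences were used here. No paired analysis was possible because both samples belong to 1 group.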
